A study of Mus musculus with 1 sample.

Results

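The 8 genes described here encode the CD3 complex and the first steps of signalling from the T cell receptor (TCR). They are Cd3e, Cd3d, Cd3g and Cd247, the invariant chains that assemble with the TCR, and Lck, Zap70, Lat and Lcp2, the proximal kinases and adaptors. The genes were chosen by name, all 8 of 8 were found among the 32285 genes of the matrix, and no threshold on their levels was part of the rule. They were measured in the blood of 1 vehicle-treated mouse with small cell lung cancer (SCLC), in which TCR chains and gene expression were sequenced from the same droplets. Levels were compared between barcodes with Cd4 UMIs only and with Cd8a or Cd8b1 UMIs only, by granzyme UMIs, by the share of ribosomal protein UMIs, and by the presence of a clonotype. UMIs are the molecular identifiers by which captured RNA molecules are counted once each.

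The animal belonged to a genetically engineered model on a C57BL/6 background in which conditional Rb1 and Trp53 alleles are deleted by Adeno-Cre virus given into the trachea. Only cells reached by the virus lose both tumor suppressors, so the blood T cells are host cells around a tumor. The vehicle was phosphate-buffered saline, and the age and sex of this animal are not given in the sources used here. T cells were isolated from 150 µl of blood by negative selection, a procedure that removes other cells with antibodies and leaves T cells untouched. No treated or healthy mouse was analysed here.

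In T cells, the TCR α and β chains bind peptide and MHC but carry no signalling tail of their own. CD3ε pairs with CD3δ or CD3γ, and a pair of CD3ζ chains, encoded by Cd247, completes the receptor and carries most of its tyrosine activation motifs. LCK, which is held at the CD4 and CD8 coreceptors, phosphorylates these motifs. ZAP-70 then docks on them and phosphorylates the membrane adaptor LAT and the cytosolic adaptor encoded by Lcp2, which together gather the enzymes that raise calcium and activate RAS.

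The matrix held 12855001 UMIs over 300213 barcodes and was not filtered for cells. A limit of 1331 UMIs left 1600 barcodes with 1334 to 18399 UMIs, and 964 of them carried a clonotype in the contig table. Of these 1600 barcodes, 369 had Cd4 UMIs only (CD4-only), 719 had Cd8a or Cd8b1 UMIs only (CD8-only), 49 had both and 463 had neither. Levels are given as UMIs pooled over the barcodes of a class per 10000 UMIs of that class. Brackets hold exact 95% intervals, Poisson for levels and conditional binomial for ratios of levels. As there is 1 library from 1 mouse, no test was run, these intervals cover counting error only, and cells are not replicates. A gene was counted as higher or lower when its level differed by 1.5-fold or more, provided that the compared groups held 50 or more of its UMIs between them.

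Cd3g, Cd3d and Cd3e lie side by side on chromosome 9 (GRCm38.p6), within 40.1 kb. Cd3g (44969572 to 44980431, minus strand) and Cd3d (44981769 to 44987052, plus strand) are transcribed away from each other, with 1337 bases between them. Cd3e (44998735 to 45009663) lies on the minus strand. Cd247 is on chromosome 1 (165779952 to 165871153, plus strand) and spans 91.2 kb, against 5.28 kb for Cd3d and 10.9 kb each for Cd3e and Cd3g. The promoters of the 4 CD3 genes are printed here because the ratio of Cd247 stood apart from those of the other 3 in the unsplit lineage, granzyme and ribosomal share comparisons. Each RefSeq window holds 250 bases before and 50 after a transcript start, on the strand of the gene, from 5′ to 3′. That start need not be the outermost base of the gene, and the Cd247 window lies around a start inside the span given above. Capitals mark AGGAAGT on either strand, a motif that contains the core bound by ETS factors and that was chosen after the sequences had been seen.

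Cd3e, chr9:45009562-45009861, minus strand: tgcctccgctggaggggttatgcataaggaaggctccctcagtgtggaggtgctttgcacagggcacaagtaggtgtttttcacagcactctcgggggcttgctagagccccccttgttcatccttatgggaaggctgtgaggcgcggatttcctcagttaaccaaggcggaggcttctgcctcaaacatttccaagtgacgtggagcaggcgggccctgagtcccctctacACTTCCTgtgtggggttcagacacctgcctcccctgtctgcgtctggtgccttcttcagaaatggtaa

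Cd3d, chr9:44981536-44981835, plus strand: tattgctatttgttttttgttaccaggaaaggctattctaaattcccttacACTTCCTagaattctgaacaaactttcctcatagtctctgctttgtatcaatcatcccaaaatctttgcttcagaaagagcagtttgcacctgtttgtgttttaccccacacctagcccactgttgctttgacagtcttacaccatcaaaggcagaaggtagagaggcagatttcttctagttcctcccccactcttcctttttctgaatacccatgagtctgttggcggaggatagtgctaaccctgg

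Cd3g, chr9:44980382-44980681, minus strand: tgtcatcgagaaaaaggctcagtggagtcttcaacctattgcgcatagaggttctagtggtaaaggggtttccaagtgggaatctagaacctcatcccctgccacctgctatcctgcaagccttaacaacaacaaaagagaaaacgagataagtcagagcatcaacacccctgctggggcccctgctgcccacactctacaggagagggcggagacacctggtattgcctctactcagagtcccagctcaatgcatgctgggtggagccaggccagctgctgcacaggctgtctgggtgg

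Cd247, chr1:165788431-165788730, plus strand: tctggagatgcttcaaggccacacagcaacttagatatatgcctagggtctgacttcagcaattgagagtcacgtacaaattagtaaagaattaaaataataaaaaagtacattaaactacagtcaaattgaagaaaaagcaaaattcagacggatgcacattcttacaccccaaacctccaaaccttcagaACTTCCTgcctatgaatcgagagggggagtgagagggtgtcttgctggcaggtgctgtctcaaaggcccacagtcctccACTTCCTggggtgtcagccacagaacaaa

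The motif occurs in the Cd3e and Cd3d windows and at 2 places in the Cd247 window, and is not among the letters of the Cd3g window. Over all 8 genes, 5 of 11 windows held it, from 4 genes (Cd3e, Cd3d, Cd247 and Lck). It occurs in 3072 of 32851 promoter windows of this length (9.35%). As the motif was chosen after the sequences had been seen, an excess over that share is no finding. A match is a description of letters, and binding was not measured.

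Summed, the 8 genes had their highest levels in barcodes with T cell features and were near 0 in B cell-marker barcodes. In the summed level of the 8 genes over 18 classes, CD4-only barcodes with a clonotype and a ribosomal share of at least 10% came first with 50.8 UMIs per 10000 (49.4 to 52.2, 213 barcodes). Clonotyped barcodes without any Cd4 or CD8 UMI followed with 46.0 (44.2 to 47.8, 137 barcodes), and clonotyped CD8-only barcodes with a share of at least 10% had 40.1 (39.4 to 40.7, 471 barcodes). From the second to the tenth place, which CD8-only barcodes with a low share and no clonotype held at 28.6 (27.1 to 30.1), the interval of each class overlapped that of the next. A gap without overlap followed among these classes, down to 15.6 (12.1 to 19.8) in 9 barcodes with NK cell markers. Barcodes with no Cd4 or CD8 UMI, no clonotype and a share under 10% did not form a class here. The gap thus holds for the listed classes only. B cell-marker barcodes were last with 0.657 (0.407 to 1.0) in 82 barcodes.

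In the plot of levels by class, Cd3e, Cd3d and Cd3g are higher on the side of large ribosomal shares, while Cd247 and Lcp2 are higher on the other.

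**Figure D1:**
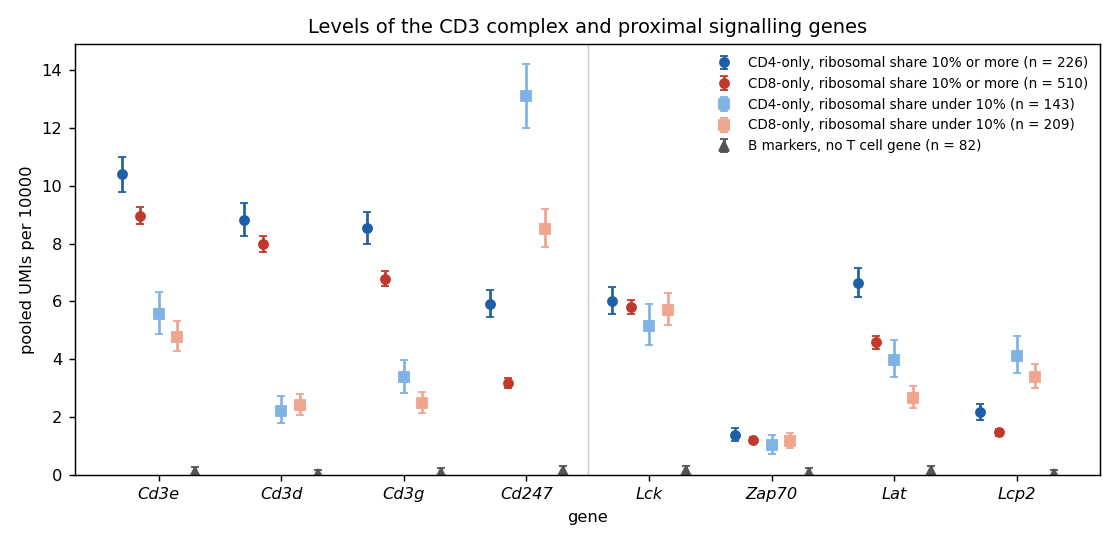
Pooled UMIs per 10000 (y axis) of the 8 genes (x axis) in CD4-only and CD8-only barcodes, split at a ribosomal protein share of 10%, and in 82 B cell-marker barcodes; bars are exact 95% Poisson intervals that cover counting error only. Cd247 reaches 13.1 in CD4-only barcodes with a low share, against 5.92 in those with a high share, whereas Cd3d is at 2.22 against 8.82.

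At least 1 UMI of a CD3 gene was found in 1433 of the 1600 barcodes (89.6%). All 4 CD3 genes were found together in 174 of 226 CD4-only barcodes (77.0%) and 415 of 510 CD8-only barcodes (81.4%) with a ribosomal share of at least 10%. With a share under 10%, this was so in 19 of 143 CD4-only barcodes (13.3%) and 35 of 209 CD8-only barcodes (16.7%). The classes differ in depth, with medians of 4214 and 7502 UMIs on the high side and 2720 and 3375 on the low side. As a background, 65 of the 82 B cell-marker barcodes (79.3%), whose median depth was 3502 UMIs, had no UMI of any of the 8 genes. That class was defined as having no UMI of Trac, Trbc1, Trbc2, Cd4, Cd8a or Cd8b1, so a low count of T cell RNA is partly built into it.

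Among barcodes with markers of other cells, the adaptors and the receptor chains were found in different places. In 18 barcodes with neutrophil markers, Lcp2 reached 3.35 per 10000 (2.05 to 5.17), while Cd3e, Cd3g, Lck and Zap70 had no UMI. There 3 counts would set a level of 0.502. In 6 basophil-marker barcodes Lcp2 was at 4.04 (2.15 to 6.91) and Lat at 2.18 (0.875 to 4.48), and none of the 4 CD3 genes had a UMI. There 3 counts would set a level of 0.933, and the exact interval of Cd3d and Cd247 reaches 1.15. Lat was at 2.10 (0.905 to 4.13) in 18 platelet-marker barcodes, and Lcp2 at 1.84 (1.26 to 2.58) in 38 monocyte-marker barcodes. For comparison, Lcp2 was at 1.45 (1.33 to 1.58) in the 471 clonotyped CD8-only barcodes with a ribosomal share of at least 10%. Its highest level was 4.18 (3.40 to 5.09), in 90 CD4-only barcodes with a share under 10% and no clonotype. LAT and the Lcp2 product are known adaptors of platelet and mast cell receptors, which signal through SYK. NK-marker barcodes held UMIs of all 8 genes, with Cd247, a partner of NK cell Fc and natural cytotoxicity receptors, at 2.71 (1.40 to 4.74) and Cd3e at 2.49 (1.24 to 4.45). These classes are small, and they were defined by 2 or more UMI-positive genes of a 4-gene list, so they are named by their markers only. A clonotype was carried by 1 of the 9 NK-marker and 1 of the 38 monocyte-marker barcodes.

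**Figure D2:**
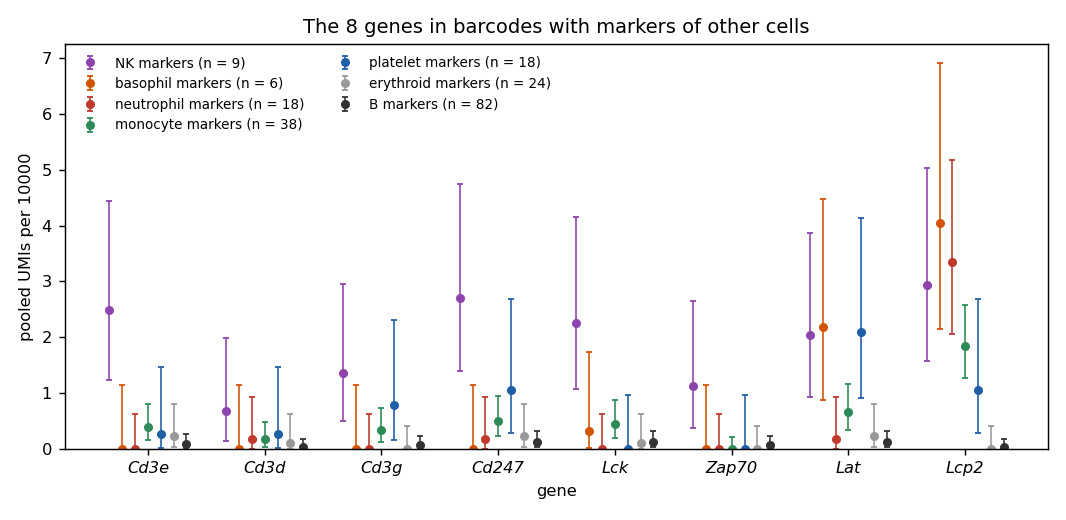
Pooled UMIs per 10000 (y axis) of the 8 genes (x axis) in barcodes with at least 2 markers of another cell type and no UMI of Trac, Trbc1, Trbc2, Cd4, Cd8a or Cd8b1; bars are exact 95% Poisson intervals. Lcp2 stands at 4.04 in basophil-marker and 3.35 in neutrophil-marker barcodes, where the CD3 genes are at or near 0.

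Comparing lineages, the 3 clustered CD3 genes were at close levels in CD4-only and CD8-only barcodes, whereas Cd247 was higher in CD4-only barcodes. Cd247 was at 7.88 per 10000 (7.43 to 8.35) in 369 CD4-only barcodes and at 4.03 (3.85 to 4.22) in 719 CD8-only barcodes. Its ratio was 1.95 (1.81 to 2.10), above that of 94.9% of the 8702 genes compared. After each barcode was thinned to 1331 UMIs, a UMI of Cd247 was found in 66.4% of CD4-only and 42.8% of CD8-only barcodes, against 89.4% and 86.1% before thinning. The median barcode was at 7.46 in the CD4-only and 3.62 in the CD8-only class, with 10th to 90th percentiles of 0 to 19.6 and 0 to 11.4, so the classes overlapped widely.

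The ratio of CD4-only to CD8-only levels was 1.09 (1.03 to 1.16) for Cd3e, 0.988 (0.920 to 1.06) for Cd3d and 1.17 (1.09 to 1.25) for Cd3g. Lck, the kinase that both coreceptors hold, was at 5.78 and 5.80 per 10000, a ratio of 0.996 (0.921 to 1.08). Zap70 was at 1.28 and 1.19, with a ratio of 1.07 (0.904 to 1.27). Both adaptors leaned to the CD4 side, Lat with 5.91 against 4.27 (ratio 1.38, 1.28 to 1.5) and Lcp2 with 2.69 against 1.78 (ratio 1.52, 1.34 to 1.71). Thus 2 of the 8 genes, Cd247 and Lcp2, were higher by 1.5-fold or more and none was lower, where 18.5% of all genes were higher and 6.60% lower. The median ratio was 1.13 over the 8 genes and 1.15 over all genes, so that Cd3e, Cd3d, Lck and Zap70 lay below the median gene.

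CD4-only barcodes were shallower than CD8-only barcodes, with medians of 3390 and 5567 UMIs, and their pooled ribosomal share was 19.0% against 28.0%. A share under 10% was found in 38.8% of CD4-only and 29.1% of CD8-only barcodes. The Cd247 ratio was 1.87 (1.69 to 2.06) among barcodes with a share of at least 10% and 1.53 (1.36 to 1.73) among those below it. The summed Cd3e, Cd3d and Cd3g had ratios of 1.17 (1.12 to 1.22) and 1.15 (1.02 to 1.30) there, so that Cd247 stood apart on both sides. In barcodes under 4000 UMIs the Cd247 ratio was 1.47 (1.30 to 1.65). The sum had a like ratio of 1.49 (1.37 to 1.62), so that Cd247 did not stand apart in these barcodes. In those of 4000 to 8000 UMIs the ratios were 1.31 (1.15 to 1.49) and 1.04 (0.980 to 1.10). The 2 windows held 235 and 115 of the 369 CD4-only barcodes, and 220 and 269 of the 719 CD8-only barcodes. Deeper barcodes, which were mostly CD8-only, were in neither window. The windows were not split by share. Under 4000 UMIs, 134 of the 235 CD4-only and 149 of the 220 CD8-only barcodes had a share under 10%. From 4000 to 8000 UMIs, 7.83% of CD4-only and 21.2% of CD8-only barcodes did. The part of the share in the ratios of the windows was not tested. Over all depths the Cd247 ratio was 1.95, above that of each window. The Lcp2 ratio was under 1.5 in each of these subsets, at 1.47 and 1.21 (0.989 to 1.48) above and below a share of 10%, and at 1.15 (0.937 to 1.42) and 1.20 (0.984 to 1.46) in the depth windows, and Cd247 too was under 1.5 in both depth windows. Counted against UMIs outside ribosomal and mitochondrial genes, the Cd247 ratio was 1.73, while Cd3e and Zap70 turned below 1, at 0.970 and 0.952. Cd3d and Lck were at 0.876 and 0.884. The part of all CD3 UMIs that came from Cd247, not corrected for length, needs no such denominator. It was 17.6% (16.3% to 18.9%, exact binomial) in CD4-only and 11.8% (11.2% to 12.4%) in CD8-only barcodes with a share of at least 10%.

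Among 59 other genes of the TCR pathway, 56 had enough UMIs, of which 15 were higher and 2 lower in CD4-only barcodes. Over all genes 18.5% were higher and 6.60% lower. The adaptors and co-signalling receptors held 8 of the 15. Trat1, which encodes the TCR-associated adaptor TRIM, was at 1.90 per 10000 against 0.236, a ratio of 8.07 (6.44 to 10.2). Cd5 and Cd6, related surface receptors that tune TCR signals, had ratios of 2.64 (2.36 to 2.95) and 1.88 (1.63 to 2.17). Rasgrp1, which activates RAS downstream of diacylglycerol, had a ratio of 1.95 (1.73 to 2.19), and Dgka, whose product removes diacylglycerol, 1.83 (1.69 to 1.97). The lower genes were Ptpn22, a phosphatase that acts on LCK and ZAP-70, at 0.587 (0.514 to 0.669), and the adaptor gene Lax1 at 0.590 (0.446 to 0.769). The constant chain genes Trac, Trbc1 and Trbc2 had ratios of 1.43, 1.48 and 1.30. Trbc1 and Trbc2 are near-identical, so reads may be split between them uncertainly.

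**Figure D3:**
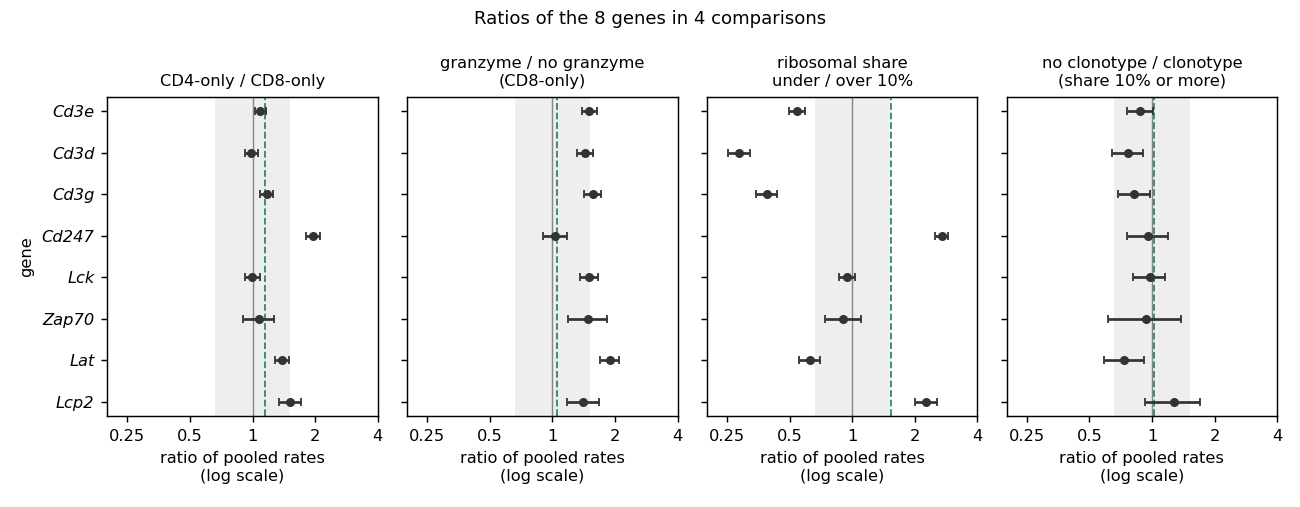
Ratios of pooled UMIs per 10000 (x axis, log scale) of the 8 genes (y axis) in 4 comparisons; points are ratios, bars exact 95% conditional binomial intervals, the grey band spans a 1.5-fold difference either way, and the green dashed line is the median ratio of all genes compared. Cd247 stands apart from the other CD3 genes in the first 3 panels, with ratios of 1.95, 1.03 and 2.69, although in the granzyme comparison it is at 1.35, among them, once barcodes with a ribosomal share under 10% are left out.

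Granzymes are the proteases of cytotoxic granules, and 108 of the 719 CD8-only barcodes held a UMI of Gzmk, Gzma or Gzmb. In these barcodes 7 of the 8 genes had levels at least 1.41 times those in the others, with Cd247 as the exception. Lat was at 7.19 per 10000 (6.55 to 7.88) against 3.80 (3.61 to 4.0) in the 611 CD8-only barcodes without a granzyme UMI, a ratio of 1.89 (1.70 to 2.10). Cd3e was at 11.7 against 7.76 (ratio 1.5, 1.39 to 1.63), Cd3g at 8.84 against 5.66 (1.56, 1.42 to 1.72) and Cd3d at 9.61 against 6.69 (1.44, 1.31 to 1.57). Cd247 was at 4.13 (3.65 to 4.66) and 4.02 (3.82 to 4.22), and its ratio was 1.03 (0.900 to 1.17).

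Lck was at 8.11 per 10000 against 5.42 (ratio 1.5, 1.36 to 1.65), just under the fold used. Zap70 was at 1.65 against 1.12 (1.48, 1.19 to 1.83) and Lcp2 at 2.37 against 1.68 (1.41, 1.17 to 1.68). Cd3e, Cd3g and Lat, 3 of the 8 genes, were higher by 1.5-fold or more and none lower, where 18.6% of all genes were higher and 16.3% lower. The median ratio was 1.49 over the 8 genes and 1.05 over all genes. Summed over the CD3 complex, the level was 37.6 (35.9 to 39.4) in 81 barcodes with Gzmk UMIs, 32.6 (30.1 to 35.2) in 35 with Gzma UMIs and 34.0 (32.1 to 36.0) in 52 with Gzmb UMIs. These groups share barcodes.

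Barcodes with and without granzyme UMIs were of similar depth, with medians of 5332 and 5609 UMIs, but 9.26% against 32.6% of them had a ribosomal share under 10%. The pooled ribosomal share went the other way, at 21.1% with and 29.1% without granzyme UMIs. Among barcodes with shares of at least 10% it was 22.2% and 34.7%. That subset was thus not matched in share, and the part of the share in its ratios was not tested. Within shares of at least 10%, where the median depths were 5582 and 8023 UMIs, the Cd247 ratio was 1.35 (1.17 to 1.56). It lay among those of Cd3d (1.30, 1.19 to 1.42), Cd3e (1.42) and Cd3g (1.44), so that Cd247 no longer stood apart. Neither Cd3e nor Cd3g reached 1.5-fold there. Lat was at 1.77, Lcp2 at 1.70, Lck at 1.53 and Zap70 at 1.42. Relative to UMIs outside ribosomal and mitochondrial genes, Lat was at 1.68, Cd3e at 1.34 and Cd247 at 0.915. Over 11 alternatives the Cd247 ratio ran from 0.731 to 1.35 and so had no direction, while the other 7 genes stayed above 1. In the depth windows the Cd247 ratio was 0.642 (0.448 to 0.896) under 4000 UMIs and 0.785 (0.640 to 0.955) from 4000 to 8000 UMIs. Under 4000 UMIs Cd3e was at 2.40 (1.88 to 3.04), Cd3g at 2.41 (1.80 to 3.20) and Cd3d at 1.74 (1.24 to 2.39), so that Cd247 stood apart there. That window was not split by share, and 29.2% of its 24 barcodes with granzyme UMIs against 72.4% of 196 without had a share under 10%. Within CD4-only barcodes, where 11 of 369 held a granzyme UMI, the ratio of the summed CD3 complex was 1.05 and that of the summed proximal genes 0.879.

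Markers of other cells differed between the CD8-only groups. The summed NK markers were at 1.83 per 10000 with granzyme UMIs and 0.406 without, and the gamma delta T markers at 0.390 and 0.153. The B markers went the other way, with 0.0624 against 0.467, and neutrophil markers were at 0 and 1.47. The part of these cells in the result was not tested.

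CD8-only barcodes with a granzyme UMI also differed from CD4-only barcodes, and in a way that the lineage comparison alone does not show. Relative to them, CD4-only barcodes had 0.771 times the summed level of Cd3e, Cd3d and Cd3g (0.729 to 0.816) and 1.91 times the level of Cd247 (1.67 to 2.19). A ribosomal share under 10% was found in 38.8% of CD4-only barcodes and 9.26% of CD8-only barcodes with a granzyme UMI. Within shares of at least 10%, CD4-only barcodes had a summed level of 27.8 (26.8 to 28.8) against 31.0 (29.6 to 32.5). Cd247 was at 5.92 against 4.07 there, so both pairs of levels lay closer together. Between CD4-only and CD8-only barcodes that both lacked a granzyme UMI, the ratios of the sum and of Cd247 were 1.14 (1.10 to 1.19) and 1.99 (1.84 to 2.15). Within shares of at least 10% they were 1.24 (1.19 to 1.30) and 1.97 (1.78 to 2.19). Lcp2, under 1.5 in the subsets by share or depth alone, was at 1.64 (1.44 to 1.86) and 1.66 (1.41 to 1.96) in these subsets without granzyme UMIs.

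Among the 56 pathway genes compared within CD8-only barcodes, 13 were higher and 9 lower with granzyme UMIs. Over all genes 18.6% were higher and 16.3% lower. The SRC family kinase gene Fyn was at 5.33 per 10000 against 2.72 (ratio 1.96, 1.73 to 2.21), whereas the TEC family kinase gene Txk was at 1.62 against 3.23 (0.502, 0.407 to 0.613). Dok1, which encodes a docking protein that restrains signalling, had the highest ratio at 2.86 (1.67 to 4.77) on 23 UMIs. Sh2d2a, an adaptor that binds LCK, was at 2.22 (1.77 to 2.76), Lax1 at 2.06 (1.6 to 2.63) and Hcst, the DAP10 adaptor of NKG2D, at 2.05 (1.86 to 2.26). Low ratios were also those of Sos1 (0.570), Rasgrp1 (0.579) and Pag1 (0.589), which take part in RAS activation and, for Pag1, in recruiting the inhibitory kinase CSK. A share under 10% was found in 9.26% of barcodes with and 32.6% without granzyme UMIs. Under against over that share, in both lineages together, Pag1 had a ratio of 5.15, Sos1 4.80, Rasgrp1 3.22 and Txk 3.01. Fyn (2.66) and Lax1 (1.28) were above 1 too, and Sh2d2a (0.758), Dok1 (0.729) and Hcst (0.138) below. The part of the share in these pathway ratios was not tested.

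The share of ribosomal protein UMIs split the CD3 complex more than any other comparison made here. Of the 1088 CD4-only and CD8-only barcodes, 352 had a share under 10% and 736 a share of at least 10%. Cd3d was at 2.34 per 10000 (2.07 to 2.64) on the low side and at 8.17 (7.92 to 8.43) on the high side, 3.49-fold lower (3.09 to 3.97). Cd3g was 2.57-fold lower (2.29 to 2.89) and Cd3e 1.83-fold lower (1.68 to 2.00). Cd247 was 2.69-fold higher (2.49 to 2.89), at 10.1 (9.54 to 10.7) against 3.76 (3.59 to 3.94). The median barcode had no UMI of Cd3d on the low side and 7.82 per 10000 on the high side, and for Cd247 the medians were 9.07 and 3.52.

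Of the 4 proximal genes, 1 was higher, 1 lower and 2 within 1.5-fold, and their sum had a ratio of 0.978 (0.925 to 1.03). Lat was at 3.13 per 10000 against 5.02 (ratio 0.625, 0.558 to 0.698), and Lcp2 at 3.65 against 1.61 (2.26, 2.00 to 2.55). Between them lay Lck, at 5.52 against 5.85 (0.942, 0.863 to 1.03), and Zap70, at 1.12 against 1.23 (0.906, 0.743 to 1.10). In all, 2 of the 8 genes were higher and 4 lower, where 51.1% of all genes were higher and 19.6% lower. The median gene was at a ratio of 1.53, and ribosomal genes took up 31.1% of UMIs on the high side and 3.10% on the low side. Relative to that median, Lck and Zap70 were low as well, and 76.4% of genes had a ratio below that of Cd247. With ribosomal and mitochondrial UMIs left out of the denominator, Cd247 was at 1.93, Lcp2 at 1.63, Lck at 0.677 and Cd3d at 0.206.

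Cd247 made up 49.8% (47.8% to 51.9%) of all CD3 UMIs below a share of 10% and 13.3% (12.7% to 13.8%) above it, while Cd3d made up 11.5% and 28.8%. The Cd247 part was 54.0% against 17.6% in CD4-only barcodes and 46.9% against 11.8% in CD8-only barcodes. In clonotyped barcodes alone, which carry a sequenced TCR on both sides, it was 38.9% (35.8% to 42.1%) in 106 barcodes against 13.2% (12.6% to 13.8%) in 684. The direction of Cd3e, Cd3d, Cd3g, Cd247, Lat and Lcp2 was the same in each lineage, in clonotyped barcodes and in both depth windows. Within 4000 to 8000 UMIs, for example, Cd3d had a ratio of 0.256 and Cd247 of 2.05 (1.78 to 2.36).

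The 2 sides differed in other measures. The low side had a median of 3056 UMIs against 6052, 3.14% of UMIs from mitochondrial genes against 1.51%, and a clonotype in 30.1% of barcodes against 92.9%. Neutrophil markers summed to 3.13 per 10000 against 0.463 and platelet markers to 1.58 against 0.560, while B markers were at 0.131 against 0.453 and NK markers at 0.672 against 0.570. The part of depth or of other cells in the result was not tested beyond the values above.

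Across narrower classes of the share, levels moved in steps and not only at 10%. Summed Cd3e, Cd3d and Cd3g were at 5.86 per 10000 (5.15 to 6.63) in 134 barcodes with a share under 2%, at 10.4 (9.48 to 11.3) from 2% to 4%, and at 19.5 (16.4 to 23.0) from 8% to 10%. Just above the limit, from 10% to 12%, the sum was 31.7 (27.6 to 36.2) in 18 barcodes. Counted against all UMIs, the sum did not keep rising with the share, and was at 22.2 (21.7 to 22.7) in 358 barcodes over 30%. Ribosomal UMIs are in that denominator and take up more of it as the share rises. Levels in these classes were not taken against the other UMIs, so the part of the denominator in this fall was not tested. Cd247 went from 11.6 (10.6 to 12.7) under 2% to 6.21 (4.53 to 8.31) from 8% to 10%, 7.11 (5.24 to 9.42) from 10% to 12%, and 2.92 (2.73 to 3.12) over 30%. The proximal genes summed to 12.6 under 2%, reached 20.6 (18.8 to 22.6) from 12% to 15%, and were at 11.6 over 30%.

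**Figure D4:**
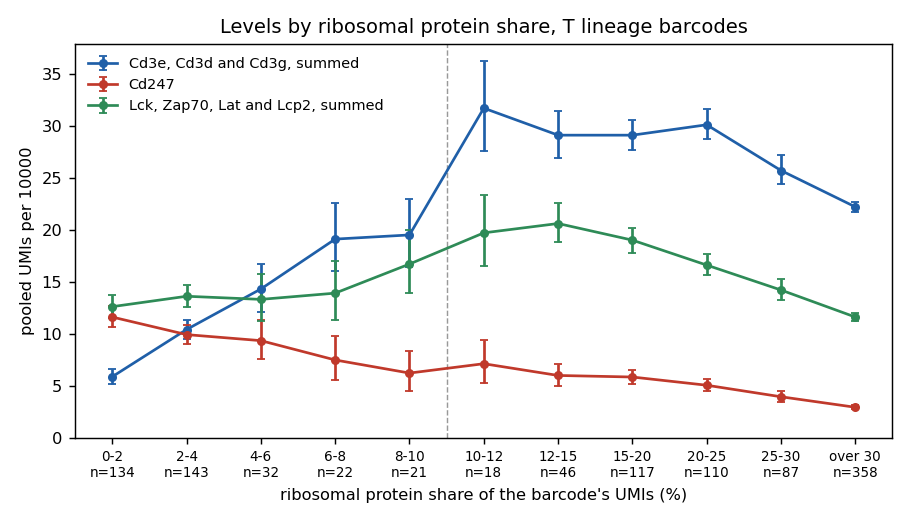
Pooled UMIs per 10000 (y axis) of 3 sums by classes of the ribosomal protein share (x axis, %, with the number of CD4-only and CD8-only barcodes in each); bars are exact 95% Poisson intervals and the dashed line marks 10%. The sum of Cd3e, Cd3d and Cd3g goes from 5.86 in the lowest class to 31.7 just above 10% and down to 22.2 over 30%. Cd247 goes from 11.6 to 2.92 over the whole range. Levels are counted against all UMIs, of which ribosomal UMIs take up more toward the right.

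Across genes, the ratio in this comparison was higher for longer genes, and the 8 genes followed this in part. Gene span, from the first to the last base of the RefSeq gene, was 5.28 kb for Cd3d, 5.88 kb for Lat, 10.9 kb for Cd3e and Cd3g, 21.0 kb for Zap70, 25.3 kb for Lck, 45.4 kb for Lcp2 and 91.2 kb for Cd247. Lat, though shorter than Cd3e and Cd3g, had a higher ratio than both. Over 8449 genes with a span and without ribosomal protein genes, the Spearman correlation of span with the ratio was 0.773. This is a description across genes, which share the same barcodes and depth and are not independent. The median ratio was 0.470 for genes under 5 kb, 0.731 from 5 to 10 kb, 1.11 from 10 to 20 kb, 1.65 from 20 to 40 kb, 2.5 from 40 to 80 kb and 3.63 from 80 kb.

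Set beside genes of like span, all 8 had a ratio below the median of their class. Cd3d at 0.286 was under the lower quartile of its class (0.461), as were Cd3e at 0.545 and Cd3g at 0.389 (lower quartile 0.734), Lck at 0.942 and Zap70 at 0.906 (1.18), and Cd247 at 2.69 (2.72). Lat at 0.625 and Lcp2 at 2.26 lay within the middle range of their classes.

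**Figure D5:**
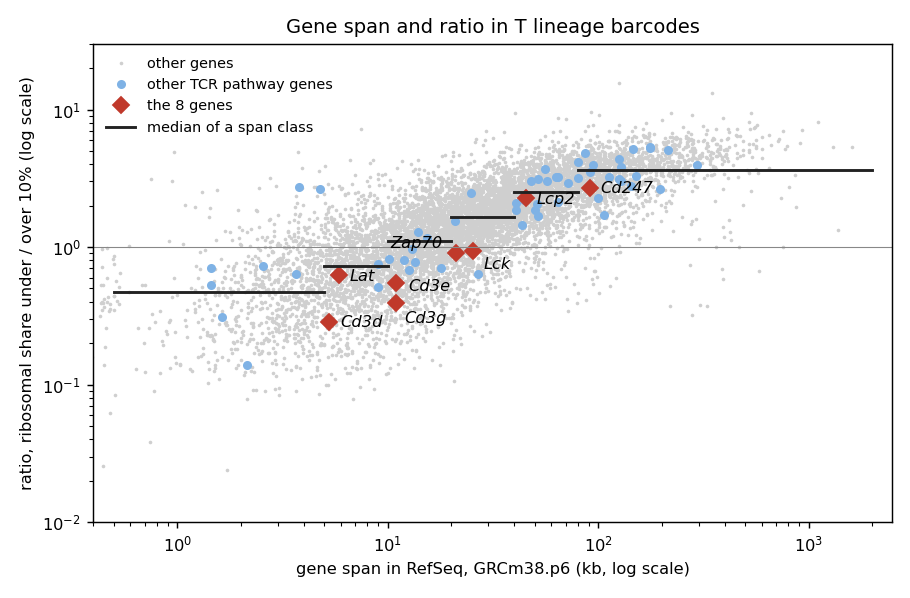
Ratio of levels under against over a ribosomal share of 10% (y axis, log scale) by gene span in kb (x axis, log scale) for genes with at least 50 UMIs; red diamonds are the 8 genes, blue points other TCR pathway genes, grey points all others with a UMI on the low side, and black lines the medians of span classes. Cd3d (5.28 kb) lies at 0.286 and Cd247 (91.2 kb) at 2.69, each below the line of its class.

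Of the 56 other pathway genes, 38 were higher and 6 lower below a share of 10%, with a median ratio of 2.36. Over all genes 51.1% were higher and 19.6% lower. The 5 leading genes on the high end span 86.7 to 215 kb. Stim1, the calcium sensor of the endoplasmic reticulum, had a ratio of 5.36 (4.85 to 5.93), the ubiquitin ligase gene Cblb 5.25 (4.80 to 5.75), Pag1 5.15 (4.56 to 5.81), Themis 5.09 (4.80 to 5.40) and Sos1 4.80 (3.88 to 5.93). The lowest were Hcst at 0.138 (0.110 to 0.171), Sit1, a small transmembrane adaptor, at 0.312 (0.163 to 0.547), Was, the actin regulator lost in Wiskott-Aldrich syndrome, at 0.514, Trbc2 at 0.526 and Csk at 0.635. With a span of 40 kb or more, 34 of 35 pathway genes were higher, and of 10 under 10 kb, 5 were lower and 2 higher. Genes of like span did much the same. Over all genes with a span, 86.0% of those from 40 to 80 kb and 94.5% of those from 80 kb were higher. Of those under 5 kb 69.5% were lower, and of those from 5 to 10 kb 44.6%.

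A clonotype was found in 684 of the 736 CD4-only and CD8-only barcodes with a ribosomal share of at least 10%, and not in the other 52. Over all depths, the levels of the 8 genes differed by less than 1.5-fold between these groups. Cd3e was at 8.18 per 10000 (7.06 to 9.43) without and 9.33 (9.06 to 9.61) with a clonotype, a ratio of 0.877 (0.755 to 1.01). Cd3d was at 6.33 against 8.27 (0.766, 0.645 to 0.903), Cd3g at 5.94 against 7.23 (0.822, 0.688 to 0.975) and Cd247 at 3.62 against 3.77 (0.959, 0.761 to 1.19).

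Lat was at 3.75 per 10000 against 5.08 (0.737, 0.588 to 0.914), and Lcp2 at 2.02 against 1.59 (1.27, 0.925 to 1.71). Lck had a ratio of 0.977 (0.815 to 1.16) and Zap70 one of 0.940 (0.614 to 1.38). Over all depths none of the 8 genes reached a 1.5-fold difference, where 14.6% of all genes were higher and 15.4% lower, and the median ratio was 0.908 over the 8 genes and 1.02 over all genes. Cd3d, Cd3g and Lat stayed below 1 over 10 alternatives, Cd3d between 0.367 and 0.872. The lowest value comes from pooling all ribosomal shares, which takes in 246 further barcodes without a clonotype and a share under 10%.

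Barcodes without a clonotype were shallower, with a median of 3738 UMIs against 6339, and had higher levels of some markers of other cells. Counted by barcode, 2 or more markers of another lineage were found in 7 of 52 without and 105 of 684 with a clonotype. They were thus not more frequent without a clonotype. Platelet markers summed to 0.301 per 10000 against 0.573, and monocyte markers to 1.34 against 1.29. B markers summed to 5.60 per 10000 against 0.199, NK markers to 3.83 against 0.410 and gamma delta T markers to 1.16 against 0.112, while neutrophil markers were at 0 against 0.486. Without the 7 and 105 barcodes that had 2 or more markers of another lineage, the ratio of the summed CD3 complex was 0.934, against 0.842 (0.772 to 0.916) with them. Of the monocyte markers, Cst3 was found in 440 of the 1600 barcodes and Ms4a6c in 334, but Csf1r in 18. The barcodes left out need not all be other cells. At more equal depth the differences were larger. In 27 and 145 barcodes under 4000 UMIs the ratio of the summed CD3 complex was 0.670 (0.569 to 0.786), and Lat (0.458, 0.286 to 0.698), Cd247 (0.624, 0.408 to 0.921) and Cd3d (0.660, 0.469 to 0.908) were lower by more than 1.5-fold. In 20 and 298 barcodes of 4000 to 8000 UMIs the sum was at 0.707 (0.618 to 0.806), and Lat (0.619), Cd3g (0.633) and Cd3d (0.663) were lower by that much. For these windows neither the share of all genes past 1.5-fold nor their median ratio was taken. The genes named in them thus have no background and are no result about the 8 genes. Among pathway genes 6 were higher and 6 lower over all depths, where 14.6% of all genes were higher and 15.4% lower. The highest ratios were those of Tyrobp at 15.3 (9.90 to 23.5) and Fcer1g at 14.8 (8.35 to 25.7), which encode signalling adaptors of NK and myeloid cell receptors. Each was found in only 5.77% of the 52 barcodes without a clonotype, with 40 and 24 UMIs, and in 2.34% and 3.07% of the 684 with one. These 2 ratios thus rest on few barcodes. Nfatc2, a calcium-driven transcription factor, had 1 UMI against 168 (ratio 0.121, 0.00304 to 0.682).

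Among barcodes with a share under 10%, 246 of 352 had no clonotype. The ratio of summed Cd3e, Cd3d and Cd3g was 0.539 there, and that of Cd247 was 1.13 (0.997 to 1.28).

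Among clonotyped barcodes with a share of at least 10%, the summed CD3 level was 26.6 per 10000 in 178 barcodes with 2 to 8 TCR contig UMIs and 30.4 in 156 barcodes with 20 to 79, whose median depths were 4519 and 8732 UMIs. Barcodes with 9 to 13 and 14 to 19 such UMIs had 28.6 and 28.3. Barcodes with a TRB but no TRA chain had 0.914 times the summed level of the 8 genes in those with both. In 65 barcodes whose clonotype was seen in 2 or more barcodes, that sum was 1.30 times the level in 619 with a clonotype seen once, and 1.37 times within CD8-only barcodes. The ribosomal share was 21.2% in the former and 32.1% in the latter. Lat had the highest ratio in CD8-only barcodes, 1.62, and Cd247 the lowest, 1.08 (0.870 to 1.32).

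Over 13 classes of at least 20 barcodes, which differ in depth and share the library, the genes most like the sum of the 8 were Saraf, Ehd3, Cd27, Ms4a4b and Il7r, with Pearson correlations of 0.973 to 0.967 among 5735 genes. The 8 genes had correlations of 0.897 (Lcp2) to 0.990 (Lck) with the sum they belong to. Within the 684 clonotyped barcodes with a share of at least 10%, the 28 pairs of genes had correlations of -0.0653 to 0.121 after thinning to equal depth, which in sparse counts is no finding.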

How the data were processed

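Blood T cells of 1 vehicle-treated mouse were analysed. Per the file headers, the deposited values are unnormalized UMI counts that the authors made with Cell Ranger 4, and per the submitters' processing notes the genome build is GRCm38. The matrix holds a count for each gene in each barcode, empty droplets included. The contig table gives reads, UMIs, chains and the clonotype of each contig.

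Barcodes with at least 1331 UMIs were kept. This limit is 1 part in 10 of the UMI total at the 99th percentile of the 3000 deepest barcodes. A clonotype was read from contigs called a cell, of high confidence and productive. The ribosomal share is the percent of UMIs from 82 ribosomal protein genes. With 1 library, no test was run, and levels were compared as pooled UMIs per 10000 with exact 95% intervals (Python 3.11.15, SciPy 1.17.1), unthinned and with each barcode thinned to 1331 UMIs, which kept every barcode. A count of 0 is given with the level that 3 counts would set. Scrublet, in Scanpy 1.11.5, marked 10 barcodes (0.625%) as doublets, which were kept. The ratios were checked on simulated counts with known folds.

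Named are the 8 genes, the 5 pathway genes at each end of a comparison past 1.5-fold, the constant chain genes and the 5 genes most like the sum on log2 of UMIs per 10000 plus 0.1. A gene that this rule names is not reported here. The genes, lists and comparisons were chosen with earlier results of these data known. Depth windows and the part of CD3 UMIs from Cd247 were added after the data had been seen. Gene spans and promoters come from RefSeq, GRCm38.p6, matched by symbol for all 8 genes. For span, 98.0% of the genes compared had a value. Genes overlap Cd247 (Pou2f1, 553 UMIs) and Lcp2 (4930469K13Rik, 195 UMIs), and the handling of strand is not given in the sources used here.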

Additional observations from a re-analysis of the deposited data

Results flagged for a closer look

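UMIs of the CD3 complex were also found outside the barcodes used for the comparisons, at levels not above that of free RNA. In 1908 barcodes of 200 to 1330 UMIs, 11 of them with a clonotype, Cd3e, Cd3d, Cd3g and Cd247 summed to 5.42 UMIs per 10000 (4.90 to 5.98). The sum was 0.313 in B cell-marker barcodes, which were chosen to lack UMIs of other T cell genes. In 20532 barcodes of 10 to 50 UMIs, which hold mostly free RNA, the sum was 17.3 (16.4 to 18.2). Right at the limit it was 15 (11.1 to 19.8) in 23 barcodes above and 17.2 (13.5 to 21.6) in 34 barcodes below.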

How the results depend on the processing

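Alternatives were run for the 8 genes and their sums, not for other pathway genes, and none of the 8 that was past 1.5-fold changed direction in them. Of 84 values of the summed CD3 complex and the summed proximal genes, 54 stayed within the counting interval and 30 moved out of it, and of 420 values of single genes and further sums 311 stayed and 109 moved. For CD4-only over CD8-only, counting against UMIs outside ribosomal and mitochondrial genes gave 1.08 (CD3) and 1.07 (proximal), and thinning 1.26 and 1.07. For granzyme UMIs, that denominator gave 1.26 and 1.43, clonotyped barcodes 1.35 for CD3 and thinning 1.75 for the proximal genes. For the ribosomal share, CD3 was at 0.514 with that denominator, 0.751 with lineages called from 2 UMIs, 0.675 as a mean over barcodes, 0.837 in clonotyped barcodes, and 0.683 and 0.840 at thresholds of 5% and 15%. The proximal sum was at 0.703, 1.04, 0.914, 1.10 and, at 15%, 1.11, and at 0.917 when thinned, so it had no direction. For no clonotype over clonotype, CD3 was at 0.934 without other markers, 0.974 with lineages from 2 UMIs, 0.762 as a mean, 0.715 thinned, 0.699 over all shares and 0.689 with any productive contig. The proximal sum was at 1.08, 0.811, 0.760 and, with any productive contig, 0.798, on either side of 1. The cause was not tested. Asking for 200 UMIs per gene left 6.67% of genes higher and 7.95% lower without a clonotype. No paired analysis was possible because there is 1 sample.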
